A study of Homo sapiens with 18 samples.

Results

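The ATF4 amino acid stress response genes described here are 37 genes named by symbol, of the 31004 genes in the deposited count table of HCT116 colorectal carcinoma cells, and 35 of them were in that table. CBS and VLDLR were not analysed here. The set holds 13 enzymes of serine, one-carbon and amino acid metabolism (12 in the table), 8 amino acid transporters, 13 stress regulators and 3 other targets (2 in the table). The genes were chosen by symbol after CHAC1 and TRIB3 had been seen to be higher in antisense cells. The levels in antisense cells without hnRNPK overexpression are therefore a description with no test. Tests are given for the cells that also overexpressed hnRNPK. The choice is taken to rest on NC libraries, but these cells came from the same stable lines and earlier results of these data were known. Their tests are therefore not independent of that choice. Every other test shares NC libraries with that choice, as stated beside it.

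ATF4 is a transcription factor of the integrated stress response. When amino acids run short or unfolded proteins build up, kinases phosphorylate the initiation factor eIF2α, protein synthesis slows, and ATF4 mRNA is translated more efficiently. ATF4 then pairs with C/EBP family proteins on composite sites and switches on genes that import amino acids, make serine, asparagine and one-carbon units, charge tRNAs and, when stress lasts, limit the response or promote cell death. In tumour cells the same genes support growth when amino acids are scarce.

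The cells were HCT116, a human colorectal carcinoma line of epithelial origin. They stably carried, from a lentivirus selected with puromycin, CRLM1 (a long non-coding RNA studied for liver metastasis), an antisense CRLM1 construct or the empty control. Each of these 3 backgrounds was then given either an hnRNPK expression construct, encoding an RNA- and DNA-binding protein, or the negative control (NC) by transient transfection. This gave 6 groups of 3 libraries, which are called Ctrl_NC, CRLM1_NC, Antisense_NC, Ctrl_hnRNPK, CRLM1_hnRNPK and Antisense_hnRNPK. The labels do not say whether each background was 1 stable pool or several, so p-values measure the spread between these libraries, which may be technical.

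Depth was similar, with 19732681 to 27039520 counted reads per library. HNRNPK stood at 424 to 479.7 CPM (a gene's counts scaled to library size, with TMM factors) in the NC libraries, and at 617, 644 and 491 CPM in Ctrl_hnRNPK, 671, 713 and 571 CPM in CRLM1_hnRNPK and 540.1, 532 and 583 CPM in Antisense_hnRNPK. The third libraries labelled Ctrl_hnRNPK and CRLM1_hnRNPK stood apart from their groups. Across genes, their profiles correlated with the other libraries of their group at 0.949 to 0.955 and 0.941 to 0.948, against at least 0.988 and 0.982 with the NC libraries of the same background. Counts of members that rest on them are given with and without them, as are the fold changes of single members called against these groups that moved by more than 1.5 times. CRLM1 itself had 0 reads in the control libraries, 579.9 to 658 CPM in the CRLM1 cells and 39.1 to 50 CPM in the antisense cells, where sense and antisense reads cannot be told apart because the strand of counting was not stated. EPCAM (97.95 to 176 FPKM) and KRT19 (995 to 1839 FPKM) marked epithelium in every library, whereas CDX2 was low (0.45 to 3.27 FPKM) and VIL1 was near 0 (0 to 0.11 FPKM). The summed markers of fibroblasts and leukocytes reached at most 3.91 and 1.87 FPKM.

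The composite C/EBP-ATF site was looked for in the promoters, since it is a sequence through which ATF4 is known to act on genes of this family. RefSeq promoter windows of GRCh38.p14, from 250 bases before to 50 bases after each annotated start, were available for 29 of the 37 genes. The letters TGATGNAA, searched on both strands, were in 8 of these 29 genes (27.6%) and in 4.46% of all 27305 genes with a window. The stricter form TGATGCAA, contained in the first, was in 5 of the 29 (17.2%) and in 1.08% of all genes. CEBPG, CHAC1, JDP2, SLC1A4 and SLC1A5 had the stricter form, and ASNS, SLC3A2 and SLC7A1 matched only the looser one. TRIB3, SLC6A9, SESN2, PSAT1 and PCK2 had windows without a match, and SLC7A11 had no window. The RNA of these genes also differed widely between antisense cells and controls. For 5 of the 8 genes with either match, RNA differed between antisense cells and controls by some of the widest margins. Their stretches follow, 5′ to 3′ on the gene's strand, with the matching letters in capitals (CHAC1 and SLC1A4 carry the reverse complement):
CHAC1: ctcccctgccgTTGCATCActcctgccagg
SLC1A4: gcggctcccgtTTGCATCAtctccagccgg
ASNS: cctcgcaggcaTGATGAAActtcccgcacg
JDP2: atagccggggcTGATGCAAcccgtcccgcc
CEBPG: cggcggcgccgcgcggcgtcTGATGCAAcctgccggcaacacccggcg

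The CHAC1 stretch is chr15:40953251-40953280 (plus strand), where its match starts 209 bases before the start site and lies within an exon of another CHAC1 transcript in Gencode v44. For SLC1A4 the stretch is chr2:64989381-64989410 (plus strand), overlapping an SLC1A4 exon, where LINC02245 is annotated as well. That of ASNS is chr7:97872458-97872487 (minus strand), with the match 68 bases before the start and over an ASNS exon. JDP2 (chr14:75427995-75428024, plus strand) and CEBPG (chr19:33374051-33374098, plus strand) have their matches 16 and 42 bases before the start, outside any annotated exon. SLC1A5, SLC3A2 and SLC7A1 were the other 3 genes with a match. A match of these letters is a description of the window and not a measured binding site.

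Per unit of transcript length, the members spanned a wide range of levels. In Ctrl_NC the mTOR inhibitor DDIT4 stood highest at 1292 ± 8.19 FPKM (a level scaled by transcript length and sequencing depth, mean ± SD, n = 3), followed by PPP1R15A at 222 ± 5.06, EIF4EBP1 at 186 ± 4.25 and CEBPB at 124 ± 5.21. CHAC1 (0.403 ± 0.161 FPKM) and SLC1A4 (0.15 ± 0.0520 FPKM) were near the bottom of that order. In Antisense_hnRNPK the order was different, with DDIT4 at 955 ± 138 FPKM, then SLC7A5 at 249 ± 29.7, ASNS at 247 ± 83.0, SLC3A2 at 207 ± 45.3 and MTHFD2 at 171 ± 25.8. The spreads of SLC7A5, ASNS and SLC3A2 overlapped there, and that of MTHFD2 overlapped those of ASNS and SLC3A2. Members further down, such as ATF4 (166 ± 20.8) and SLC38A2 (161 ± 6.54), overlapped MTHFD2. The order below DDIT4 is therefore not fully resolved. ALDH1L2, with 0 to 22 reads per library, and NUPR1, with 1 to 16, were near the limit of detection in all 6 groups.

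**Figure D1:**
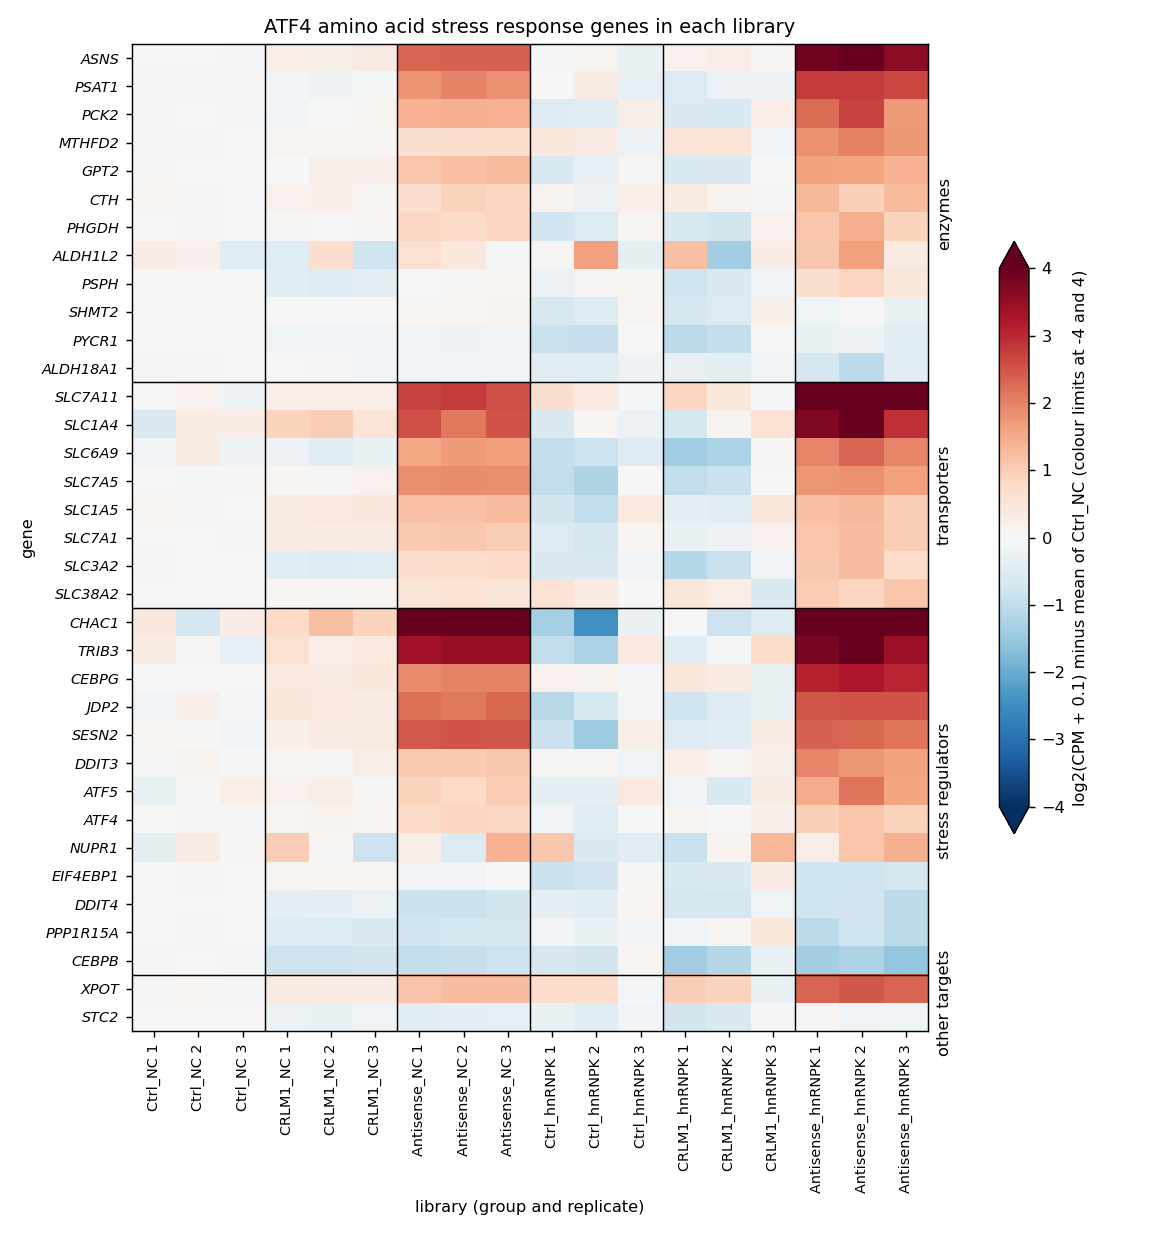
Heat map of the 35 genes in the table (rows, grouped by role) in the 18 libraries (columns, by group), where colour is log2(CPM + 0.1) minus the gene's mean in Ctrl_NC. The 6 antisense columns are raised for most enzymes, transporters and regulators, and the third Ctrl_hnRNPK and CRLM1_hnRNPK columns resemble the NC columns of their background.

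The question asked of the cells with hnRNPK was how antisense cells differed from empty-vector cells and from CRLM1 cells. In Antisense_hnRNPK against Ctrl_hnRNPK, 25 of 35 members were higher and 3 were lower at an adjusted p of at most 0.05 (edgeR quasi-likelihood test). In these bulk libraries, a change in the RNA of every cell and a change in the share of cells with that RNA cannot be told apart. Over all 14853 genes tested, 20.9% passed as higher and 19.9% as lower. The median log2 fold change was 1.49 over the members and -0.03 over all genes. All 8 transporters, 8 of 12 enzymes, 8 of 13 regulators and 1 of the other 2 targets were higher. Without the third Ctrl_hnRNPK library, 27 members were higher and 3 lower, against 29.2% and 25.5% of all genes.

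The counts against the CRLM1 cells were close to these. In Antisense_hnRNPK against CRLM1_hnRNPK, 25 of 35 members were higher and 1 was lower, where 16.6% and 14.9% of all genes passed in each direction, and the median log2 fold change was 1.51 over the members and -0.00 over all genes. The members that were higher here were 8 transporters, 8 enzymes, 8 regulators and 1 other target. Leaving out the third CRLM1_hnRNPK library gave 28 higher and 2 lower, against 26.7% and 22.3% of all genes. Both comparisons use the same 3 antisense libraries, so they are not independent of each other. CHAC1, ALDH1L2 and NUPR1 passed the filter on low counts against Ctrl_hnRNPK mainly through the antisense libraries, since 1 of 3 Ctrl_hnRNPK libraries reached it, and CHAC1 is among the 25 while ALDH1L2 and NUPR1 are not. The same held for ALDH1L2 and NUPR1 against CRLM1_hnRNPK, and for NUPR1 against Antisense_NC.

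Of the stress regulators, CHAC1 and TRIB3 differed most. CHAC1 (chr15:40952962-40956512, plus strand, Gencode v44) encodes an enzyme that degrades glutathione. It was measured at 1.54, 0.640 and 1.38 CPM in Ctrl_NC, 1.98, 2.72 and 2.14 in CRLM1_NC and 52.2, 49.9 and 56.0 in Antisense_NC. With hnRNPK it stood at 0.389, 0.121 and 0.907 CPM in Ctrl_hnRNPK, 1.10, 0.590 and 0.759 in CRLM1_hnRNPK, against 59.5, 61.5 and 54.3 in Antisense_hnRNPK. Every antisense library was far above every other library. CHAC1 was higher in Antisense_hnRNPK than in Ctrl_hnRNPK (log2 fold change 6.96 ± 0.42 (SE), adjusted p = 2.83e-06, edgeR) and than in CRLM1_hnRNPK (log2 fold change 6.11 ± 0.30 (SE), adjusted p = 8.69e-06). Against Ctrl_hnRNPK, where CHAC1 had entered the test through the antisense libraries, the value with no filter on low counts was 7.05. CHAC1 and TRIB3 are also the genes that prompted the choice of the set, so their tests are not independent of it. The Ctrl_hnRNPK libraries held 3 to 18 CHAC1 reads each, and without the third of them the log2 fold change was 7.81.

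TRIB3 (chr20:362835-397559, plus strand) encodes a pseudokinase that binds ATF4 and restrains it. Its NC values were 17.4, 14.8 and 11.2 CPM in Ctrl_NC, 21.6, 17.2 and 18.7 in CRLM1_NC and 148, 161 and 162 in Antisense_NC. With hnRNPK they were 7.13, 5.86 and 18.5 in Ctrl_hnRNPK, 10.1, 13.5 and 24.0 in CRLM1_hnRNPK, against 199, 242 and 152 in Antisense_hnRNPK. The antisense libraries lay above all others, and the third Ctrl_hnRNPK and CRLM1_hnRNPK libraries were the highest of their groups. TRIB3 was higher in Antisense_hnRNPK than in Ctrl_hnRNPK (log2 fold change 4.21 ± 0.40 (SE), adjusted p = 2.56e-05, edgeR) and than in CRLM1_hnRNPK (log2 fold change 3.61 ± 0.35 (SE), adjusted p = 0.000279). Without the third Ctrl_hnRNPK library the first of these was 4.90, and without the third CRLM1_hnRNPK library the second was 4.04.

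ATF4 mRNA itself (chr22:39519695-39522683, plus strand) had smaller fold changes than these targets. It was at 223, 226 and 213 CPM in Ctrl_NC, 236, 244 and 235 in CRLM1_NC and 378, 403 and 395 in Antisense_NC. The hnRNPK libraries had 200.1, 163 and 219 CPM in Ctrl_hnRNPK, 239, 225 and 253 in CRLM1_hnRNPK, against 427, 478 and 421 in Antisense_hnRNPK. All antisense libraries were above all others. ATF4 rose against Ctrl_hnRNPK (log2 fold change 1.15 ± 0.20 (SE), adjusted p = 0.00101, edgeR) and against CRLM1_hnRNPK (log2 fold change 0.85 ± 0.19 (SE), adjusted p = 0.00896). The amount of ATF4 protein was not measured.

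DDIT3, which encodes the transcription factor CHOP, is switched on downstream of ATF4 in lasting stress. It was at 51, 59.1 and 50.5 CPM in Ctrl_NC, 56.3, 55.5 and 63.2 in CRLM1_NC and 109.9, 111 and 112 in Antisense_NC. In the hnRNPK groups it was at 54.6, 54.9 and 47.4 in Ctrl_hnRNPK, 63.9, 58.1 and 62.5 in CRLM1_hnRNPK, against 208, 183 and 162 in Antisense_hnRNPK. DDIT3 rose in Antisense_hnRNPK against Ctrl_hnRNPK (log2 fold change 1.77 ± 0.21 (SE), adjusted p = 9e-05, edgeR) and against CRLM1_hnRNPK (log2 fold change 1.54 ± 0.20 (SE), adjusted p = 0.000928).

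Of the other regulators, SESN2, CEBPG, JDP2 and ATF5 were also higher in both comparisons. SESN2, a leucine sensor that holds back mTORC1, had 37.3 ± 22.3 CPM in Ctrl_hnRNPK, 47.2 ± 15.7 in CRLM1_hnRNPK, against 259 ± 20 in Antisense_hnRNPK (mean ± SD, n = 3). CEBPG, a C/EBP partner of ATF4, had 19.9 ± 1.64, 21.1 ± 5.24 and 162 ± 10.8 CPM in these groups. JDP2, a repressor of the AP-1 family, had 5.67 ± 2.11, 5.69 ± 0.994 and 46.8 ± 0.333 CPM. ATF5, a relative of ATF4 that is controlled in a like way, had 5.02 ± 1.67, 4.92 ± 1.56 and 18 ± 4.93 CPM. For SESN2 the log2 fold change against Ctrl_hnRNPK was 2.76, and 3.36 without the third library of that group. For each of these genes the 3 antisense libraries lay above all 6 others with hnRNPK.

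Some regulators went the other way. CEBPB, a C/EBP factor of inflammation and differentiation, was at 219, 209.7 and 372 CPM in Ctrl_hnRNPK and 136, 148 and 119.7 in Antisense_hnRNPK, and fell (log2 fold change -1.03 ± 0.24 (SE), adjusted p = 0.00566, edgeR). Without the third Ctrl_hnRNPK library, the highest of its group, the log2 fold change was -0.70 (adjusted p = 0.000262, edgeR), and with the GC trend removed it was -0.37. Against CRLM1_hnRNPK (132, 157 and 289 CPM) it did not pass (log2 fold change -0.55, adjusted p = 0.162). PPP1R15A encodes GADD34, which brings a phosphatase to eIF2α and so ends the response. It was at 704, 626 and 693 CPM in Ctrl_hnRNPK, 673, 805 and 1028 in CRLM1_hnRNPK, against 361, 430.0 and 356 in Antisense_hnRNPK. PPP1R15A was thus lower against Ctrl_hnRNPK (log2 fold change -0.86) and against CRLM1_hnRNPK (log2 fold change -1.16 ± 0.22 (SE), adjusted p = 0.00431, edgeR). DDIT4 had 2494, 2352 and 3432 CPM in Ctrl_hnRNPK, 2035, 2047 and 2866 in CRLM1_hnRNPK, against 1839, 1892 and 1568 in Antisense_hnRNPK. It was lower against Ctrl_hnRNPK (log2 fold change -0.68, and -0.48 without the third library) and did not pass against CRLM1_hnRNPK (-0.43, adjusted p = 0.142, edgeR). EIF4EBP1, which encodes the translation repressor 4E-BP1, had 148, 159 and 279 CPM in Ctrl_hnRNPK, 179, 182 and 340.5 in CRLM1_hnRNPK, against 155, 154 and 168 in Antisense_hnRNPK, and passed in neither.

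All 8 amino acid transporters were higher in antisense cells in both comparisons. SLC7A11 (chr4:138164097-138242349, minus strand) imports cystine in exchange for glutamate. It was at 7.05, 7.96 and 6.11 CPM in Ctrl_NC, 8.40, 8.39 and 8.46 in CRLM1_NC and 46.3, 49.7 and 42.0 in Antisense_NC. The hnRNPK groups had 10.9, 9.13 and 6.60 CPM in Ctrl_hnRNPK, 12.7, 9.44 and 6.74 in CRLM1_hnRNPK, against 191, 273 and 168 in Antisense_hnRNPK, where all 3 libraries exceeded those of Antisense_NC. SLC7A11 rose against Ctrl_hnRNPK (log2 fold change 4.52 ± 0.29 (SE), adjusted p = 4.07e-06, edgeR) and against CRLM1_hnRNPK (log2 fold change 4.41 ± 0.33 (SE), adjusted p = 5.66e-05).

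SLC1A4, a transporter of serine, alanine and cysteine, had a low level per transcript length outside antisense cells (0.130 ± 0.0361 FPKM in Ctrl_hnRNPK, mean ± SD, n = 3). Its NC values were 0.606, 1.20 and 1.20 CPM in Ctrl_NC, 1.89, 2.00 and 1.43 in CRLM1_NC and 6.20, 4.47 and 5.94 in Antisense_NC. With hnRNPK they were 0.605, 1.01 and 0.806 in Ctrl_hnRNPK, 0.549, 1.08 and 1.47 in CRLM1_hnRNPK, against 13.8, 24.3 and 7.99 in Antisense_hnRNPK, whose libraries were spread widely. SLC1A4 rose against Ctrl_hnRNPK (log2 fold change 4.20 ± 0.42 (SE), adjusted p = 3.54e-05, edgeR) and against CRLM1_hnRNPK (log2 fold change 3.86 ± 0.47 (SE), adjusted p = 0.000787).

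SLC7A5 (LAT1), which brings in leucine and other large amino acids, and SLC3A2 (CD98), the partner chain of both SLC7A5 and SLC7A11, had higher levels per transcript length, at 37.2 ± 15.4 and 59.9 ± 7.79 FPKM in Ctrl_hnRNPK. SLC7A5 stood at 181, 157 and 367 CPM in Ctrl_hnRNPK, 183, 199.6 and 367 in CRLM1_hnRNPK, against 1222, 1285 and 1122 in Antisense_hnRNPK. SLC3A2 stood at 190.3, 191 and 266 CPM in Ctrl_hnRNPK, 129, 153 and 257 in CRLM1_hnRNPK, against 606, 665 and 471 in Antisense_hnRNPK. The antisense libraries lay above all others for both genes. The remaining transporters were SLC7A1 for arginine and lysine, SLC1A5 and SLC38A2 for glutamine and other neutral amino acids, and SLC6A9 for glycine. Their log2 fold changes against Ctrl_hnRNPK were 1.44, 1.45, 0.64 and 2.86, and against CRLM1_hnRNPK 1.18, 1.20, 0.86 and 2.82. Without the third CRLM1_hnRNPK library that of SLC6A9 was 3.48. For SLC38A2 the value against Ctrl_hnRNPK was -0.0075 once the trend with GC content was removed.

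Among the enzymes, ASNS (chr7:97851677-97872542, minus strand), which makes asparagine from aspartate, differed most. It was at 41.2, 41.5 and 39.9 CPM in Ctrl_NC, 49.6, 48.0 and 51.4 in CRLM1_NC and 204, 208 and 208 in Antisense_NC. With hnRNPK it was at 39.4, 44.2 and 33.1 CPM in Ctrl_hnRNPK, 46.0, 49.0 and 42.3 in CRLM1_hnRNPK, against 598, 846 and 493 in Antisense_hnRNPK. The Antisense_hnRNPK libraries lay above Antisense_NC, and both above all other libraries. ASNS rose against Ctrl_hnRNPK (log2 fold change 4.01 ± 0.27 (SE), adjusted p = 4.07e-06, edgeR) and against CRLM1_hnRNPK (log2 fold change 3.78 ± 0.27 (SE), adjusted p = 4.74e-05).

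The 3 enzymes that make serine from a glycolytic intermediate were all higher in both comparisons, but unequally. PHGDH, the first step, had 60.9 ± 19.5 CPM in Ctrl_hnRNPK, 61.7 ± 22.2 in CRLM1_hnRNPK, against 175 ± 34.5 in Antisense_hnRNPK (mean ± SD, n = 3). PSAT1, the next, had 35.9 ± 7.82, 28.7 ± 3.70 and 241 ± 12.5 CPM. PSPH, which completes serine, had 21.7 ± 2.54, 15.7 ± 3.74 and 34.7 ± 4.99 CPM. Their log2 fold changes against Ctrl_hnRNPK were 1.49, 2.70 and 0.64.

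In mitochondrial one-carbon metabolism, MTHFD2 was higher (297, 277 and 189 CPM in Ctrl_hnRNPK, 309.6, 314 and 202 in CRLM1_hnRNPK, against 794, 891 and 738 in Antisense_hnRNPK). SHMT2, which splits serine into glycine and a one-carbon unit, passed in neither comparison (log2 fold changes 0.13 and 0.10). Without the third Ctrl_hnRNPK library SHMT2 (0.41) and PYCR1 (0.59) passed as higher. Of the proline enzymes, ALDH18A1 had log2 fold changes of -0.35 and -0.46 and PYCR1 of 0.22 and 0.27, and neither gene passed with all libraries. PCK2, GPT2 and CTH, which act in gluconeogenesis, alanine synthesis and cysteine synthesis, were higher by 2.43, 1.77 and 1.08 against Ctrl_hnRNPK and by 2.49, 1.87 and 1.00 against CRLM1_hnRNPK, on the log2 scale. Of the other targets, XPOT, the exporter of tRNAs from the nucleus, had 72.1, 72.4 and 42.9 CPM in Ctrl_hnRNPK, 87.4, 82.1 and 35.9 in CRLM1_hnRNPK, against 220.4, 250.1 and 221 in Antisense_hnRNPK, and passed in both comparisons. STC2, a secreted glycoprotein, had log2 fold changes of 0.12 and 0.30 and passed in neither.

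**Figure D2:**
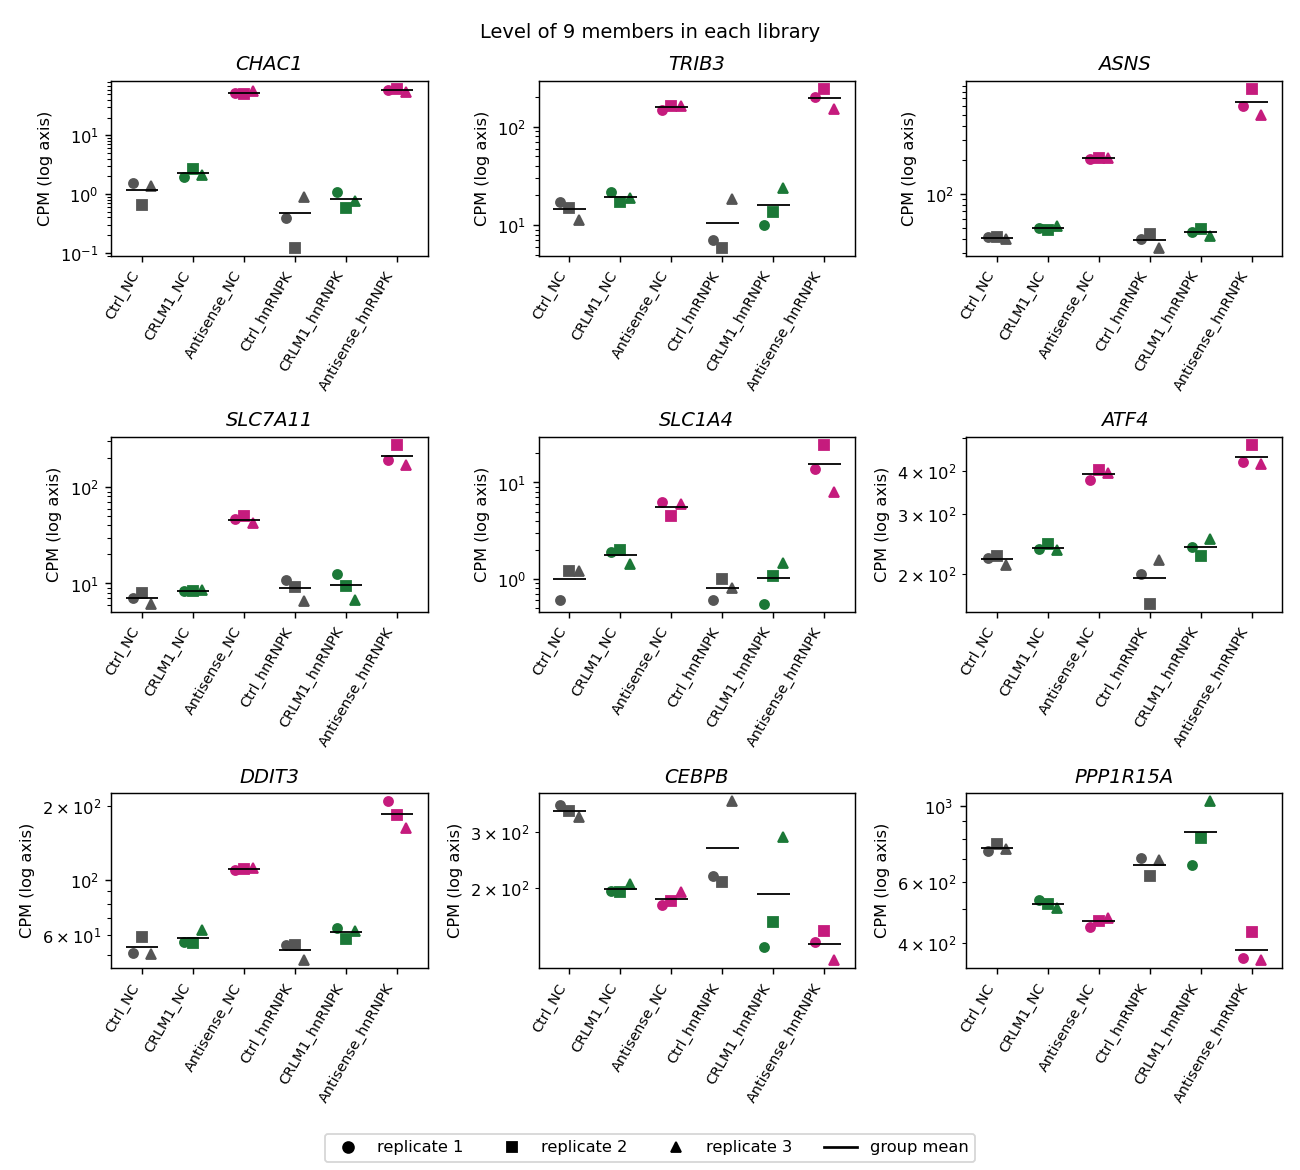
CPM on a log axis for 9 members in each of the 18 libraries, with 1 marker shape per replicate number and a bar at the group mean. The antisense points lie above the others for CHAC1, TRIB3, SLC7A11 and ASNS, and the third Ctrl_hnRNPK library has the highest TRIB3 of its group at 18.5 CPM.

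**Figure D3:**
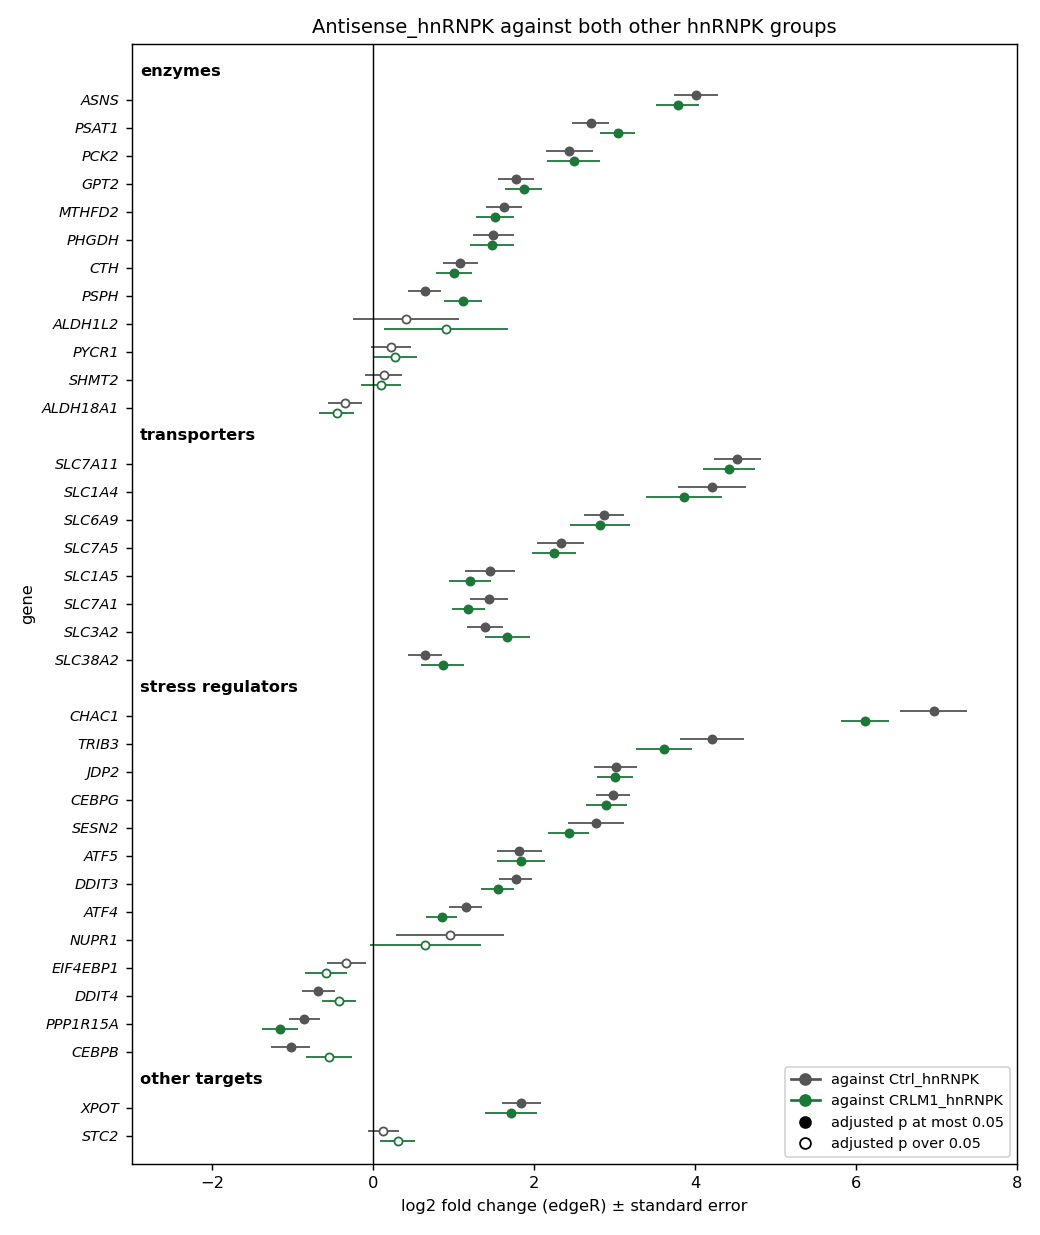
Log2 fold change ± SE of each member in Antisense_hnRNPK against Ctrl_hnRNPK (grey) and against CRLM1_hnRNPK (green), filled where the adjusted p is at most 0.05. All 8 transporters are filled to the right of 0, and PPP1R15A is filled to the left in both colours.

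GC content moved with these comparisons. Taken over all genes whose GC percent was known, log2 fold change and GC percent had a Spearman correlation of -0.454 against Ctrl_hnRNPK and -0.498 against CRLM1_hnRNPK, and -0.250 and -0.263 without the third libraries. With the trend removed, 26 members were higher and 4 lower against Ctrl_hnRNPK, and 27 and 2 against CRLM1_hnRNPK. On the FPKM scale, the median shift of a gene's log2 fold change from the main fit was 0.361 to 0.397 and 0.353 to 0.397. On that scale 28 and 27 members passed as higher. The shares of all genes that passed with the trend removed or on the FPKM scale are not reported here. These member counts therefore cannot be set against all genes.

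CRLM1 cells were next set against control cells. With hnRNPK, 0 of 33 members passed in CRLM1_hnRNPK against Ctrl_hnRNPK by edgeR, where 0.0137% of all genes passed as higher and 0% as lower. DESeq2 also gave 0 in each direction. An unadjusted p under 0.05 (edgeR) was found for 0 members and for 435 of all 14641 genes. Same-numbered libraries of these groups deviated together from their group means. The third library of both groups stood apart, so this cannot show whether the numbers pair the libraries. With a replicate block TRIB3 and ATF4 passed as higher and CEBPB as lower, 2 and 1 members. With the third library of each group left out, 5 members were higher and 6 lower, against 8.88% and 7.65% of all genes. The 5 were TRIB3 (log2 fold change 0.85, adjusted p = 0.00359, edgeR), SESN2 (0.61), SLC1A5 (0.42), SLC7A1 (0.38) and ATF4 (0.34). The 6 lower were PSPH, PSAT1, CEBPB, SLC3A2, STC2 and DDIT4, from -0.63 to -0.26.

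Without hnRNPK, 11 of 33 members were higher and 7 lower in CRLM1_NC against Ctrl_NC (edgeR) where 16.9% and 17.4% of all genes passed, and the median log2 fold change was 0.09 over the members and 0.01 over all genes. The choice of the set used Ctrl_NC and CRLM1_NC. None of the 18 reached a 2-fold difference. Higher members included TRIB3 (log2 fold change 0.40), CEBPG (0.37), SLC1A5 (0.36), SESN2 (0.28) and ASNS (0.26), and CHAC1 had the highest value at 0.95. Lower members included CEBPB (-0.82), PPP1R15A (-0.56), SLC3A2 (-0.47) and PSPH (-0.46). CEBPB fell from 362, 347 and 332 CPM in Ctrl_NC to 196, 194 and 207 in CRLM1_NC, with no overlap.

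The values from which the set was chosen are given as a description. In Antisense_NC against Ctrl_NC, 15 of 33 members were at least 2-fold higher and 0 at least 2-fold lower, where 7.28% and 7.08% of all genes were past that fold. Against CRLM1_NC the counts were 14 and 0, with 3.24% and 4.23% of all genes. CHAC1, TRIB3 and SLC7A11 had the highest log2 fold changes against Ctrl_NC, at 5.47, 3.40 and 2.66, and against CRLM1_NC, at 4.49, 2.99 and 2.41. SESN2 (53.7 ± 3.62 CPM in Ctrl_NC and 300.4 ± 5.16 in Antisense_NC, mean ± SD, n = 3), ASNS, JDP2 and SLC7A5 were also over 3-fold higher against both. CEBPB (-0.96 and -0.14), DDIT4 (-0.87 and -0.52) and PPP1R15A (-0.76 and -0.21) were lower. Mitochondrially encoded reads made up 6.91% ± 0.266 of counts in Antisense_NC, 4.13% ± 0.0997 in Ctrl_NC and 5.02% ± 0.0884 in CRLM1_NC (SD, n = 3), and their part in these values was not tested.

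Antisense cells with and without hnRNPK were compared to see what the transfected construct changed. In Antisense_hnRNPK against Antisense_NC, 19 of 34 members were higher and 6 lower (edgeR), where 33.4% and 30.5% of all genes passed, and the median was 0.33 over the members and 0.04 over all genes. Antisense_NC was used in choosing the set. SLC7A11 (log2 fold change 2.19 ± 0.17 (SE), adjusted p = 1.58e-06, edgeR), ASNS (log2 fold change 1.64 ± 0.17 (SE), adjusted p = 1.22e-05), SLC1A4 (log2 fold change 1.48 ± 0.39 (SE), adjusted p = 0.0108) and MTHFD2 (log2 fold change 1.20 ± 0.09 (SE), adjusted p = 1.58e-07) had the highest values. XPOT, CEBPG, PSAT1, PCK2 and ATF5 rose by 1.18, 1.15, 0.88, 0.87 and 0.87 on the log2 scale. DDIT3 rose as well (log2 fold change 0.73 ± 0.09 (SE), adjusted p = 1.16e-05, edgeR). SLC1A4 lost this call with no filter on low counts (adjusted p = 0.12, edgeR) and with a replicate block (adjusted p = 0.0508, edgeR). The 2 genes from which the set started did not pass, with 0.33 for TRIB3 (adjusted p = 0.0579, edgeR) and 0.15 for CHAC1 (adjusted p = 0.155). ATF4 did not pass either, at 0.17 (adjusted p = 0.0919, edgeR). These 3 calls depended on the processing, and all 3 genes passed as higher with the GC trend removed, at 0.99 for TRIB3, 0.83 for CHAC1 and 0.52 for ATF4 (adjusted p = 0.000314, 1.5e-05 and 0.000351, edgeR). They also passed in limma on both FPKM scales, and TRIB3 passed in DESeq2 (0.29), with no filter, with a replicate block and without the third Antisense_hnRNPK library (0.45).

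By role, 8 of 11 enzymes, 5 of 8 transporters, 4 of 13 regulators and both other targets were higher in this comparison. The members that fell were EIF4EBP1 (-0.69), ALDH18A1 (-0.56), CEBPB (-0.46), PPP1R15A (-0.27), SHMT2 (-0.26) and SESN2 (-0.22). GC content moved strongly with this comparison, with a Spearman correlation of -0.729 with log2 fold change over all genes, and the median GC was 50.4% for the members that rose and 59.0% for those that fell. Once that trend was removed, 29 members passed as higher and 2 as lower (ALDH18A1 and SLC38A2), and the share of all genes that passed then is not reported here. PPP1R15A, SESN2, SHMT2 and CEBPB changed from lower to higher, and SLC38A2 changed from 0.47 to -0.23.

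In control cells the effect of hnRNPK on the members depended on the third library. Ctrl_NC was used in choosing the set, and CHAC1 and TRIB3 prompted that choice. In Ctrl_hnRNPK against Ctrl_NC, 0 of 33 members passed by edgeR in either direction (0% of all genes higher and 0% lower). An unadjusted p under 0.05 (edgeR) was found for 6 members, all lower, and for 2246 of all 14607 genes, in either direction. Without the third Ctrl_hnRNPK library, 4 members were higher and 21 lower, against 29.6% and 29.9% of all genes. The 4 were XPOT (0.73), SLC7A11 (0.53), SLC38A2 (0.47) and MTHFD2 (0.40). CHAC1 (-2.17), TRIB3 (-1.13), SESN2 (-1.10) and SLC7A5 (-1.07) had the lowest values. In that fit CHAC1 had 9 and 3 reads in the remaining Ctrl_hnRNPK libraries and entered through Ctrl_NC. It is among the 21, but its p-value is not given for that reason. With all libraries, 1 of 3 Ctrl_hnRNPK libraries reached the low-count filter for CHAC1, which entered the test through Ctrl_NC.

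The CRLM1 cells gave like counts, and CRLM1_NC was used in choosing the set as well. In CRLM1_hnRNPK against CRLM1_NC, 0 of 33 members passed by edgeR in either direction (0% of all genes higher and 0% lower). An unadjusted p under 0.05 (edgeR) was found for 5 members, of which 4 were lower, and for 1332 of all 14394 genes, in either direction. Without the third CRLM1_hnRNPK library 5 were higher and 20 lower, against 29.5% and 29.1% of all genes. XPOT (0.65), PPP1R15A (0.56), MTHFD2 (0.45), SLC7A11 (0.44) and SLC38A2 (0.32) were the 5. CHAC1 (-1.37), SLC1A4 (-1.08), SLC6A9 (-1.03) and JDP2 (-0.99) had the lowest values. In both backgrounds without the third library the members that passed as higher had a lower median GC (39.7% and 40.7%) than those that passed as lower (58.8% in each), and the part of GC content was not tested further there.

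**Figure D4:**
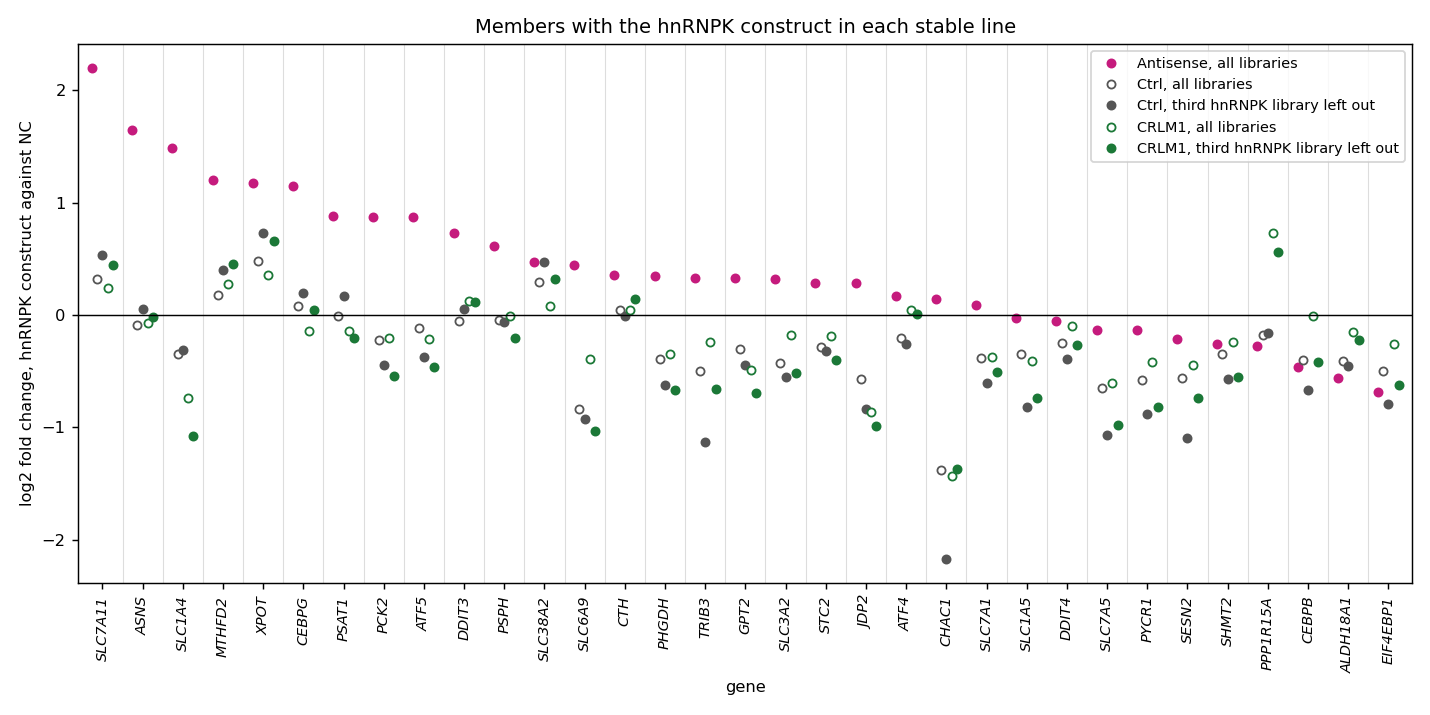
Log2 fold change of 33 members between hnRNPK and NC libraries within antisense (pink), control (grey) and CRLM1 (green) cells. Antisense values use all libraries and are filled. Control and CRLM1 values are open with all libraries and filled without the third hnRNPK library. SLC7A11 and ASNS are at 2.19 and 1.64 in antisense cells, and CHAC1 is at -2.17 in control cells without the third library.

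Whether the effect of hnRNPK differed between backgrounds was tested by an interaction term over 12 libraries, added after the data had been seen, and these fits share NC libraries with the choice of the set. Against control cells, 0 of 35 members passed by edgeR (0% of all genes higher and 0% lower). An unadjusted p under 0.05 (edgeR) was found for 18 members, all higher, and for 2179 of all 15346 genes, in either direction. After adjustment, DESeq2 called 12 members higher, for which the share of all genes is not reported here. Without the third Ctrl_hnRNPK library 24 members passed as higher in antisense cells and 0 as lower, against 2.85% and 3.77% of all genes. CEBPG, SLC7A11 and ASNS passed without the third Antisense_hnRNPK library, and these with PSAT1 without the second Ctrl_hnRNPK library.

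Against CRLM1 cells, 6 of 35 members had a higher hnRNPK effect in antisense cells and 1 a lower one (edgeR), against 0.315% and 0.807% of all genes. The 6 were SLC7A11 (difference of log2 fold changes 1.96 ± 0.31, SE, adjusted p = 0.0214, edgeR), ASNS (1.72), CHAC1 (1.58), CEBPG (1.31), JDP2 (1.16) and PSAT1 (1.04), and the lower one was PPP1R15A (-1.0). Leaving out any 1 of the 6 NC libraries or the first Antisense_hnRNPK library left 0 members passing, leaving out the second Antisense_hnRNPK library left ASNS alone, and leaving out the third CRLM1_hnRNPK library gave 24 higher and 1 lower, against 5.41% and 12% of all genes.

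Genes of neighbouring pathways, taken from lists that hold none of the members, moved in both directions in Antisense_hnRNPK against Ctrl_hnRNPK, where each gene is given by its log2 fold change. Of 8 other ATF4 target genes tested, 3 were higher and 3 lower (edgeR, median log2 fold change -0.03), and the shares over all genes for this comparison and those below were 20.9% and 19.9%. ADM2, a peptide hormone, rose (3.38 ± 0.56, adjusted p = 0.000653, edgeR), as did the haem oxygenase HMOX1 (1.18), while NFIL3 (-1.33) and VEGFA (-1.18) fell. Of 13 amino acid enzymes outside the members, 3 were higher, among them the arginase ARG2 (2.53 ± 0.22, adjusted p = 1.73e-05, edgeR) and the aspartate aminotransferase GOT1 (1.60), and 2 were lower (PYCR3 at -1.30 and OAT at -0.64). Of 14 other amino acid transporters, SLC38A1 (1.89) and SLC43A1 (1.64) rose and 4 fell, with the lowest values for SLC7A8 (-1.36) and SLC1A1 (-0.86).

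Of 14 genes of the folate and serine cycle outside the members, 3 were lower, among them AMT (-1.49) and MAT2A (-1.13). Of 15 genes of eIF2α kinases and eIF2 control, EIF2S1 (0.80) and EIF2B1 (0.56) were higher and GCN1 (-0.65) and DELE1 (-0.49) lower. The genes of the other arms of endoplasmic reticulum stress, which ATF6 and XBP1 control, had 2 of 12 higher (XBP1 at 1.08 and SEL1L at 1.06) and 4 lower, among them SDF2L1 (-2.0 ± 0.25, adjusted p = 0.000149, edgeR) and the chaperone HSPA5 (-1.24). 

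These counts depended on the libraries and on the group compared. With the third Ctrl_hnRNPK library left out they were 3 higher and 3 lower for the other ATF4 targets, 6 and 2 for the enzymes, 2 and 4 for the transporters, 4 and 3 for eIF2 control and 2 and 6 for endoplasmic reticulum stress, with 6 lower genes of the folate and serine cycle. Against CRLM1_hnRNPK, with all libraries, they were 3 and 3, 3 and 1, 2 and 1, 0 and 1, and 2 and 4 in the same order of lists, with 4 lower genes of the folate and serine cycle. Without the third CRLM1_hnRNPK library they were 3 and 3, 4 and 3, 3 and 2, 2 and 3, and 2 and 8, with 6 lower folate and serine cycle genes.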

How the data were processed

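RNA-seq of 18 libraries of HCT116 cells (6 groups of 3) was analysed from the tables the authors deposited. Per the labels and the study's methods, 151 nt paired-end reads of KAPA RNA HyperPrep libraries were trimmed, aligned to GRCh38 with TopHat2 (4 mismatches allowed, Gencode v23 genes) and uniquely mapped reads were kept. The strand used in counting is not given in the sources used here, so reads of overlapping antisense genes cannot be told apart. The authors deposited whole-number counts per gene (31004 genes) and FPKM per gene (30879 genes), with no replicates pooled.

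Counts were tested with the edgeR 4.0.16 quasi-likelihood test (robust, R 4.3.3), with TMM scaling, filterByExpr (minimum count 10) in a separate fit for each pair of groups, and p-values were adjusted over all genes by the Benjamini-Hochberg method. CPM values were computed with TMM-scaled library sizes. Depth was 19732681 to 27039520 counts per library. Alternatives were RLE factors, no filter, a replicate block, limma 3.58.1 on log2(FPKM + 1) and log2(FPKM + 0.1), DESeq2 1.42.0, removal of a lowess trend with GC content (span 0.3), a single fit over all libraries, and each library left out. The study left out the third Ctrl_hnRNPK and CRLM1_hnRNPK libraries, and the main fits keep them. The fits were checked on simulated counts.

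The members and all gene lists were chosen with earlier results of these data known. All members are named, and fold change, SE and adjusted p are given for at most the 4 highest and 4 lowest members past a 2-fold change and an adjusted p of 0.05 in each comparison, and for ATF4, DDIT3, CHAC1, TRIB3 and ASNS wherever Antisense_hnRNPK was compared. Some further values were added after they had been seen. Of each other list, up to 2 higher and 2 lower genes are named. For the folate and serine cycle list, the result in the other direction is not reported here. Pairing by replicate number was looked for where the deviations of every same-numbered pair from their group means correlated over 0.1. This held for CRLM1_hnRNPK against Ctrl_hnRNPK (0.660, 0.549 and 0.779) and for no other comparison. The third library of both groups stood apart from its group, so these correlations cannot show by themselves that the numbers pair the libraries. No 2 libraries agreed within sampling noise. Promoter windows came from RefSeq (GRCh38.p14) and gene positions from Gencode v44.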

Additional observations from a re-analysis of the deposited data

Results flagged for a closer look

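For 7 members the effect of hnRNPK differed between antisense and CRLM1 cells, higher in antisense cells for 6 of 35 and lower for 1. Over all genes, 0.315% passed as higher and 0.807% as lower. The interaction test over 12 libraries (edgeR) was added after the data had been seen. This test uses the Antisense_NC and CRLM1_NC libraries from which the set was chosen, with CHAC1 among the genes that prompted it, so it is not independent of the choice. The difference of log2 fold changes, antisense minus CRLM1, was 1.96 ± 0.31 (SE, adjusted p = 0.0214) for SLC7A11 and 1.72 ± 0.24 (adjusted p = 0.0189, edgeR) for ASNS. It was 1.58 ± 0.28 for CHAC1, 1.31 ± 0.24 for CEBPG, 1.16 ± 0.21 for JDP2 and 1.04 ± 0.19 for PSAT1 (adjusted p = 0.027 each, edgeR). It was negative for PPP1R15A, at -1.0 ± 0.21 (adjusted p = 0.0384, edgeR), whose CPM was 673, 805 and 1028 in CRLM1_hnRNPK and 531, 518 and 506 in CRLM1_NC, against 361, 430 and 356 in Antisense_hnRNPK and 446, 464 and 474 in Antisense_NC. For CHAC1, mean CPM was 52.7 in Antisense_NC and 58.4 in Antisense_hnRNPK, against 2.28 in CRLM1_NC and 0.815 in CRLM1_hnRNPK. The means of JDP2 were 38.3, 46.8, 10.7 and 5.69 CPM in the same order. Both genes were thus lower with hnRNPK in CRLM1 cells. SLC7A11, ASNS, CEBPG and PSAT1 rose in antisense cells, as given above. The third CRLM1_hnRNPK library, at 1028 CPM, was the highest of its group for PPP1R15A and resembled CRLM1_NC over all genes. Without any 1 of the 6 NC libraries 0 of these members passed. Without the third CRLM1_hnRNPK library 24 members passed as higher and 1 as lower, against 5.41% and 12% of all genes. No group has enough libraries for a single library to be tested as standing apart within it.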

How the results depend on the processing

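Shares of all genes are given above for the main fits and for fits without the third Ctrl_hnRNPK or CRLM1_hnRNPK library, and not for the other alternatives. The counts for Antisense_hnRNPK against Ctrl_hnRNPK ranged over 15 alternatives from 23 to 28 members higher and from 2 to 4 lower, and those higher against CRLM1_hnRNPK from 21 to 28, all within 1.5 times the reported count. Lower members against CRLM1_hnRNPK were 2 with the GC trend removed, with or without the replicate block, 4 in the single fit, and 1 to 2 when 1 library was left out. In CRLM1_hnRNPK against Ctrl_hnRNPK, where same-numbered libraries deviated together, the replicate block gave 2 higher and 1 lower, the block with the GC trend removed 1 and 3, and leaving out the third library of each group 5 and 6. For CRLM1_NC against Ctrl_NC, DESeq2 gave 7 higher and the single fit 0 higher and 0 lower. For Antisense_hnRNPK against Antisense_NC, removing the GC trend, with or without the replicate block, gave 29 higher and 2 lower, the single fit 11 and 2, limma on either FPKM scale 2 lower, and leaving out 1 library 14 to 19 higher and 3 to 8 lower.

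When 1 library was left out, the counts were 0 to 4 higher and 0 to 21 lower for Ctrl_hnRNPK against Ctrl_NC, and 0 to 5 higher and 0 to 20 lower for CRLM1_hnRNPK against CRLM1_NC, with the upper ends reached without the third hnRNPK library. For the latter, removing the GC trend gave 1 higher (PPP1R15A), also with the replicate block, and 1 lower (SLC7A5) without it. The interaction against control cells gave 9 higher with no filter, 2 with the replicate block (SLC7A11 and ASNS), 12 with DESeq2, 21 and 20 with the GC trend removed without and with the block, and 0 to 24 when 1 library was left out. That against CRLM1 cells gave 12 higher with no filter, 12 with DESeq2, 24 with the GC trend removed, with or without the block, and 0 to 24 higher and 0 to 1 lower when 1 library was left out. The replicate block changed no other count by over 1.5 times. Outside CRLM1_hnRNPK against Ctrl_hnRNPK, the deviations of same-numbered libraries correlated at -0.223 to 0.0900.

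For the 28 values tested for single named members, 382 of 432 alternatives kept direction and side of the threshold, 34 lost the call, 16 gained one and 0 reversed a call. Most lost calls were in the interaction against CRLM1 cells, with 8 for SLC7A11, 7 for ASNS, 8 for CHAC1 and 8 for CEBPG. ATF4 against CRLM1_hnRNPK had an adjusted p of 0.0583 (edgeR) in 1 alternative. Where counts or single values moved, the cause was not tested. With 3 libraries per group and CHAC1, SLC1A4, ALDH1L2 and NUPR1 at few reads outside antisense cells, the size of their fold changes depends on depth and pseudocount, as for SLC1A4 against Ctrl_hnRNPK, at 4.20 in edgeR and 1.78 on log2(FPKM + 1).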
